A study of Mus musculus with 12 samples.

Results

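Intergenic peaks within 20 kb of a transcription start site are stretches of open chromatin that lie outside annotated genes but close to the start of one. They were taken from an ATAC-seq comparison of macrophages that engrafted the mouse brain from a bone marrow graft and the microglia of the same hosts. The members were chosen from the annotation in the files alone: a peak annotated as intergenic, with its centre at most 20 kb from the nearest start site and not in an LTR, LINE or SINE repeat. There were 7400 members among 60288 peaks in the table of untreated mice (12.3%) and 6542 among 54953 in the table of LPS-treated mice (11.9%). The member closest to the limit from inside lay 19992 bp from its start site in both tables, and the first peaks beyond it lay at 20002 bp and 20001 bp.

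ATAC-seq marks DNA that a transposase can reach, so a peak is a site that is not covered by nucleosomes in at least some of the cells. Open sites outside promoters are where enhancers are found, and in macrophages many of them are opened by a lineage factor such as PU.1 together with partners that respond to signals, among them AP-1, CEBP, IRF and NF-kappaB proteins. CTCF, which holds chromatin loops, occupies another share of such sites. Microglia descend from yolk sac precursors and macrophages of a graft from haematopoietic stem cells. Lipopolysaccharide (LPS) is a bacterial cell wall component that signals through toll-like receptors. It was given outside the brain, and the study links microglia responses in this setting to cytokines secreted in the body. Whether LPS acted on the sorted cells directly was not tested.

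All mice were C57BL/6J and labelled wild type, and every host, also in the untreated groups, had received bone marrow of a donor after irradiation with 950 cGy. The 12 libraries came from 6 mice, and in each mouse the CD45.1 graft-derived cells and the CD45.2 host microglia of the brain were sorted separately. Mice 4, 5 and 6 were untreated. Mice 1, 2 and 3 received 2.5 mg/kg LPS, by the study's text into the peritoneum, and were killed 12 h later. This gave 4 groups of 3 libraries. The labels give 3.5 or 9 months between transplantation and analysis without assigning the mice, while the study's text places both the untreated and the LPS experiment at 9 months. The sort took cells by surface proteins, so the graft population holds whatever donor cells passed the gate, and by the study's text the donors were congenic wild type mice that differ from the hosts at the CD45 locus.

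The libraries held between 2966364 and 9107770 tags, and members held between 70102 and 334700 of them. The CD45.2 library of untreated mouse 4 stood apart, with a median of 14 tags per member against 24 to 31.5 in the other untreated libraries. This was not for lack of depth, since it held the most tags of all 12 libraries, 9107770. Of these, 1680263.5 lay in peaks, against 2555696 to 3348848 tags in peaks in the other untreated libraries. The CD45.2 library of LPS mouse 1 was the shallowest, with a median of 6.5 against 9 to 21.5 tags. Over members, log2 counts of replicates correlated with r from 0.86 to 0.94 untreated and from 0.80 to 0.88 after LPS, against 0.58 to 0.74 and 0.64 to 0.72 between the populations (a description over 7289 and 5908 members tested, which share libraries and depth). Promoter peaks of 5 of 7 microglia and macrophage markers were present, with summed normalised tags of 500 to 592 in CD45.1 and 577 to 637 in CD45.2 libraries of untreated mice. No promoter peak was tested in either table for the listed markers of monocytes, T cells, B cells, neurons or endothelial cells. This does not show that such cells were missing. Aif1 and Csf1r, listed as microglia and macrophage markers, had no such peak either. The study also reports mRNA of Ccr2, a listed monocyte marker, in engrafted cells. The 2 of 4 border macrophage markers with a promoter peak summed to 71.9 to 85.3 tags in untreated CD45.1 libraries and 28.7 to 32.9 in CD45.2 libraries. After LPS they summed to 25.5 to 33.9 and 11.3 to 20.9. These sums are scaled within each treatment, so they do not compare treated with untreated mice. The microglia and macrophage markers, too, had lower sums after LPS, 178 to 234 in CD45.1 and 187 to 228 in CD45.2. The 1 of 3 astrocyte markers with a peak was higher in CD45.2 libraries (24.4 to 53.2 tags, against 10.3 to 16.4, untreated). The part of such cells in the results was not tested. For 1 of 4 neutrophil markers a promoter peak was tested after LPS, at 5.66 to 19.3 tags in CD45.1 and 8.76 to 28.5 in CD45.2 libraries, and 1 of 3 oligodendrocyte markers had 31.0 to 48.3 tags over all untreated libraries.

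Untreated, the members had 4553 nearest genes, and after LPS they had 4211. They lay upstream of the nearest start in 80.9% and 80.7% of cases, at a median distance of 8482 bp and 8653 bp. Positions just downstream of a start lie in its gene, which the rule leaves out. The upstream share therefore follows in part from the choice of members. The nearest start was that of a protein-coding gene for 87.9% and 87.1%. A nearest gene is a name for the place only, since the files do not say which gene a peak acts on. The sequences of 7 members that carry the main findings are shown first, read from mm9 on the plus strand. Capitals mark matches to the searched motifs, which were TGANTCA for AP-1, TTGCNNAA for CEBP, GAGGAAGT for PU.1, TGTGGTT for RUNX, GAAANNGAA for IRF, CACGTG for an E-box, and degenerate consensus letters for NF-kappaB, MEF2 and CTCF, on both strands.

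The first 4 were more open in graft-derived cells than in host microglia of untreated mice, and became more open in host microglia after LPS. They are given as called in the LPS table, apart from that near Ms4a6b. An AP-1 match stands in 3 of them, and the one near Ms4a6b holds an NF-kappaB and a CEBP match.
Dppa3 (chr6:122585437-122585612): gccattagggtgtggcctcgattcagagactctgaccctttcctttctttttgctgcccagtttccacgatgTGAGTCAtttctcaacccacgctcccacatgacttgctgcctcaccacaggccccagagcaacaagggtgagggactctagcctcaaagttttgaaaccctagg
Tlr2 (chr3:83649143-83649393): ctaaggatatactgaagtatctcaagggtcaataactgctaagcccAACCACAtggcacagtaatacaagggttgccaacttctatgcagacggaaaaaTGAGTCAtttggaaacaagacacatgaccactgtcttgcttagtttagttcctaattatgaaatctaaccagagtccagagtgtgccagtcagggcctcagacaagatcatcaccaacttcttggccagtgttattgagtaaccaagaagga
Rabggta (chr14:56343287-56343493): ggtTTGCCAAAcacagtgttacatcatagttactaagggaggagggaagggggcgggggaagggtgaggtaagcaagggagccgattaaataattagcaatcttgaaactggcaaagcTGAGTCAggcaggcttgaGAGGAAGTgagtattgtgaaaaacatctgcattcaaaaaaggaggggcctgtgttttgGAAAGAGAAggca
Ms4a6b (chr19:11588153-11588290): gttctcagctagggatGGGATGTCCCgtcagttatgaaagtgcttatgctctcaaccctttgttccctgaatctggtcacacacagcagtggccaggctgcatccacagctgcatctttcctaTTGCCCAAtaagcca
The next, from the LPS table, was open in graft-derived cells with and without LPS, and its match is to CEBP.
Cxcl2 (chr5:91326551-91326693): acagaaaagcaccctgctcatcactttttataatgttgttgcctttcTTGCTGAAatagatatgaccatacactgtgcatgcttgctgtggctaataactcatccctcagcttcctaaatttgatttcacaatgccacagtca
The last 2, from the untreated table, were open in host microglia. The one near Ccdc149 holds none of the motifs, and the one near Adamts16 holds an E-box followed after 1 base by a RUNX match.
Ccdc149 (chr5:52867564-52867748): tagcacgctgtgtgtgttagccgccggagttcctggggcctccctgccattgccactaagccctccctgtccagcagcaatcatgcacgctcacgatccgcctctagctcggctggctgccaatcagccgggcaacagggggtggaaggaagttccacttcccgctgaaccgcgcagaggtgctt
Adamts16 (chr13:70985948-70986092): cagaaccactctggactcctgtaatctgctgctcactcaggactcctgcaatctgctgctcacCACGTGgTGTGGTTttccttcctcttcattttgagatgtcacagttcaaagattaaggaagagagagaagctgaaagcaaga

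The first question was where the populations differed in untreated mice. Members with more than 10 tags in their highest library were tested. Of these 7289, 299 were higher in CD45.1 graft-derived cells and 114 in CD45.2 host microglia (DESeq2, adjusted p under 0.01 and more than 4-fold). These were 4.10% and 1.56% of the members tested, beside 3.78% and 2.65% of all 59170 peaks, so the members' total of 413 (5.67%) stood near the 6.43% called among all peaks. Most members differed little: 81.7% had a fitted difference of less than 2-fold, and the median log2 difference over members was 0.01. In bulk samples, fewer cells with an open site and a less open site per cell cannot be told apart. Without the CD45.2 library of mouse 4 the counts were 268 and 89, and leaving out either of the other CD45.2 libraries gave 194 and 60 (mouse 5) or 228 and 63 (mouse 6). Leaving out the CD45.1 library of mouse 4 or 6 left 67 and 70 members higher in CD45.2.

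The members with the smallest adjusted p, 6 in each direction, are shown in the plot of normalised tags by library. Values are tags divided by the DESeq2 size factor of the library, given for mice 4, 5 and 6 in turn. Near Sorbs3, which encodes the adaptor vinexin, the peak chr14:70612498-70612665 at -5103 bp had 96.5, 87.6 and 129 tags in CD45.1 cells and 14.7, 6.97 and 6.09 in CD45.2 cells (log2 difference 3.61 ± 0.37 SE, adjusted p = 2.7e-19, DESeq2). Near Zdhhc23, a palmitoyltransferase, the peak at +13083 bp had 89.1, 75.3 and 118 tags against 7.37, 3.87 and 9.33 (3.80 ± 0.41, adjusted p = 1.2e-17, DESeq2). Near Ms4a6b, which belongs to a cluster of four-pass membrane protein genes of immune cells, the peak at -4828 bp had 68.1, 71.6 and 81.1 tags against 5.74, 5.42 and 6.90 (3.59 ± 0.42, adjusted p = 8.2e-15, DESeq2). All 3 CD45.1 libraries were above all 3 CD45.2 libraries at each of these. The same held for the peaks near Dppa3, Rabggta and Tbc1d31, whose log2 differences were 3.24, 2.16 and 3.16. Such a gap comes with the choice by adjusted p, since it held at all 299 and all 114 called members. Among all 7289 members tested it held at 2577. The gap was not counted over all peaks, so this share is not shown to be particular to members. The Rabggta difference fell under 4-fold without the CD45.1 library of mouse 6 or the CD45.2 library of mouse 5.

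In the other direction, the peak chr5:52867564-52867748 at -4874 bp from Ccdc149 had 21, 17.3 and 33.2 tags in CD45.1 cells and 165, 161 and 155 in CD45.2 cells (log2 difference -2.79 ± 0.25, adjusted p = 6.4e-25, DESeq2). Near Fzd10, a Wnt receptor gene, the values were 22.9, 21.9 and 16.3 against 110, 119 and 112 (-2.49 ± 0.27, adjusted p = 7.4e-17, DESeq2). Near Adamts16, a secreted metalloprotease gene, chr13:70985948-70986092 had 4.66, 5.48 and 1.09 tags against 63.9, 75.1 and 74.7 (-4.21 ± 0.50, adjusted p = 1.3e-14, DESeq2). The host libraries were above the graft libraries throughout, with closely spaced replicates at Ccdc149 and Fzd10. The remaining named peaks, near Olfr111, Hic2 and Kpna1, had log2 differences of -2.89, -2.30 and -2.35, and Hic2, a transcriptional repressor gene, lost its call without the CD45.2 library of mouse 4.

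**Figure D1:**
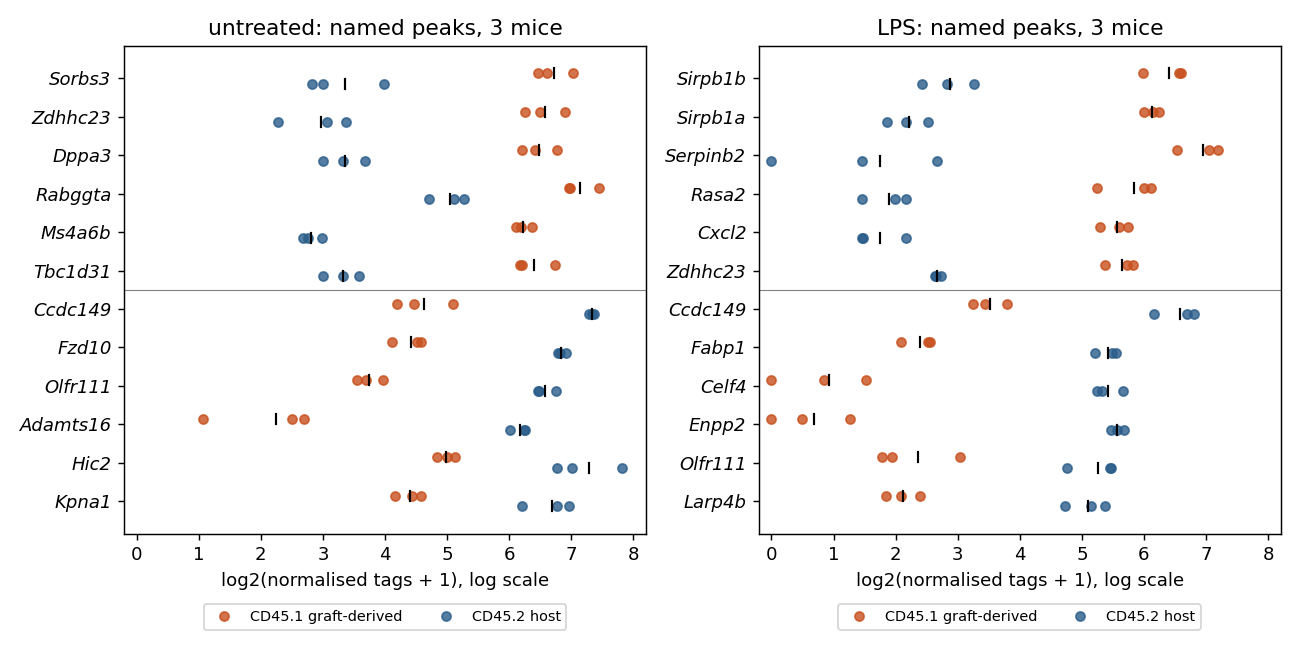
Normalised tags, as log2(tags + 1), of the 12 named members, 6 in each direction, with the smallest adjusted p in untreated mice (left) and in LPS-treated mice (right). Each point is 1 library, bars mark the mean of 3 mice, and peaks above the grey line were higher in CD45.1 and those below it higher in CD45.2. At every peak shown the 3 libraries of one population lay apart from the 3 of the other. So they did at every called member, and at 2577 of 7289 members tested in untreated mice and 1525 of 5908 after LPS. The share over all peaks was not counted.

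Several genes had more than 1 called member nearby. Members higher in CD45.1 had 270 nearest genes, of which 24 had 2 or more such members and 5 had 3 or more, and members higher in CD45.2 had 102 nearest genes, of which 8 had 2 or more. How many nearest genes had 2 or more members, called or not, was not counted, nor was the number over all peaks. The genes named next were chosen for having the most called members. All 3 members upstream of Serpinb2, the gene of plasminogen activator inhibitor type 2, were higher in CD45.1, between -14446 and -5070 bp. The strongest had 59.7, 58.0 and 79.5 tags against 1.64, 0 and 3.25 (log2 difference 5.36, adjusted p = 1.2e-11, DESeq2). It was again higher after LPS, with 91.4, 145 and 132 tags in mice 1, 2 and 3 against 1.75, 0 and 5.34. The pair upstream of Has1, a hyaluronan synthase gene, was likewise higher in CD45.1, with log2 differences of 3.22 and 4.79.

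On the host side, both members near Rxrg, a retinoid X receptor gene, were called, and the stronger held no tag in any CD45.1 library and 38.5, 48.4 and 32.5 in CD45.2 libraries. That is at least 13.6-fold, with 3 tags per library as the floor, while the weaker lost its call without the CD45.1 library of mouse 4 or 5. Both members near Marco, a scavenger receptor gene, were also called. The one at -12727 bp had 0.466, 0.913 and 2.18 tags in CD45.1 cells and 60.6, 67.7 and 59.2 in CD45.2 cells, at least 21.3-fold. Both members upstream of Fat1, a protocadherin gene, were higher in CD45.2, and all 4 members near the olfactory receptor gene Olfr111 were, though the weaker 2 of these lost the call with the mouse as a block. In all, the lower population held at most 3 tags in every library at 101 of the 299 and at 46 of the 114 called members, and with those at their bounds the median size of the log2 difference was 2.64 and 2.49.

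The peak lists of the single libraries bear on how the members were found. Of the 299 members higher in CD45.1, 164 were in the lists of all 3 CD45.1 libraries and of no CD45.2 library, and 14 were in at least 1 CD45.2 list. For the 114 members higher in CD45.2 these numbers were 23 and 8, and the CD45.2 library of mouse 4, whose own list held 34.6% of all members against 59.5% to 74.6% for the others, is 1 of the 3 that the first number needs.

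In untreated mice the share of called peaks rose with the distance from the start site, as the plot of called shares by distance and G+C content shows. Within 2 kb, 2.74% of intergenic peaks outside repeats were higher in CD45.1 and 1.01% in CD45.2, and between 10 and 20 kb 4.35% and 1.85%. Beyond the members, 20 to 100 kb away, the shares were 5.76% and 2.98%, and beyond 100 kb they were 9.79% and 8.43%. Intronic peaks had 3.97% and 3.08%, and promoter peaks 0.77% and 0.81%. After LPS the share of intergenic peaks outside repeats that were called did not rise steadily among members. It was 2.14% within 2 kb, 1.31% at 2 to 5 kb, 2.65% at 5 to 10 kb and 2.47% at 10 to 20 kb. Beyond the members it was 3.99% at 20 to 100 kb and 10.2% beyond 100 kb. These shares are a description, for which no test was run. The median tags per peak in untreated mice fell from 29.3 within 2 kb to 19.4 beyond 100 kb.

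G+C content moved with the direction. Members higher in CD45.1 had a median G+C content of 43.7%, those higher in CD45.2 52.3%, and all members tested 51.7%. Of the 321 members with at most 40% G+C, 86 (26.8%) were higher in CD45.1 and 1 in CD45.2, while among the 1024 members above 60% they numbered 10 (0.98%) and 21 (2.05%). The shift was not limited to called peaks, since the median log2 difference over all members with at most 40% G+C was 0.94, against -0.04 above 60%. The 1190 members with at most 45% G+C took 12.8% to 13.5% of member tags in the 3 CD45.1 libraries and 9.66% to 10.1% in the 3 CD45.2 libraries. A fit that held both a block for the mouse and a per-library correction for G+C content called 175 and 74 members, against 246 and 79 with the block alone. Whether G+C bias of the libraries has a part in these calls was not tested.

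**Figure D2:**
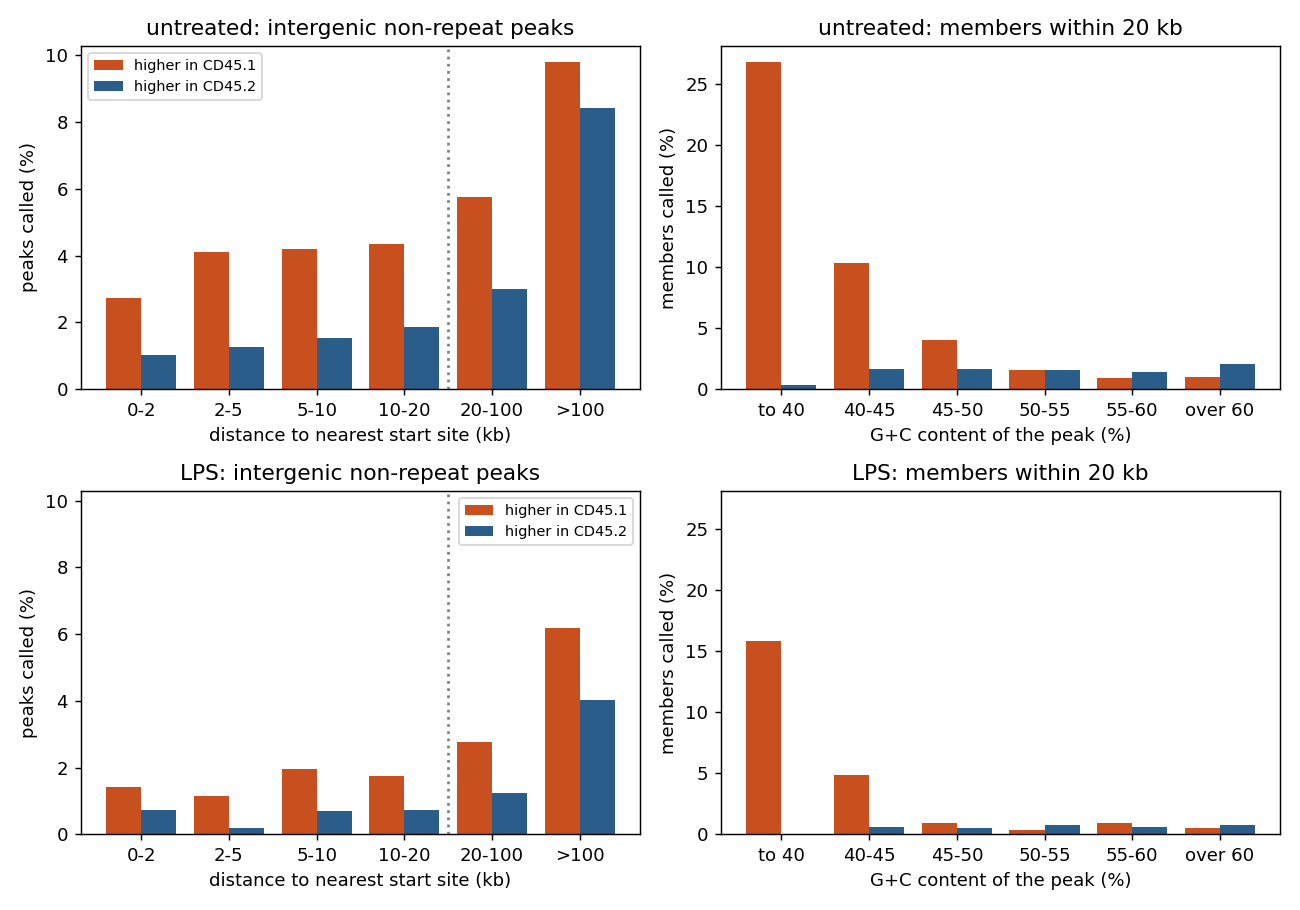
Percentage of peaks called higher in CD45.1 (orange) or in CD45.2 (blue) by distance of intergenic peaks outside repeats from the nearest start site (left; members lie left of the dotted line) and by G+C content of members (right), in untreated mice (top) and LPS-treated mice (bottom). In untreated mice the CD45.1 share falls from 26.8% of members with at most 40% G+C to 0.98% above 60%.

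The promoters of the nearest genes were a readout that the choice of members did not use. Of the 270 genes near members higher in CD45.1, 160 had a tested promoter peak. Of these, 19 were called higher in CD45.1 and 1 in CD45.2, and 123 had a positive log2 difference (76.9%), with a median of 0.19. Of the 49 tested promoters near members higher in CD45.2, 13 were called higher in CD45.2 and 0 in CD45.1, 28 had a negative and 21 a positive log2 difference, and the median was -0.11. Over the 2767 tested promoters of genes near any member, 30 and 24 were called, 1716 (62.0%) were positive and the median was 0.06.

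After LPS, fewer members differed. Of 5908 members tested, 98 (1.66%) were higher in CD45.1 and 36 (0.61%) in CD45.2, beside 1.78% and 1.19% of all 49180 peaks, and in all 134 were called (2.27%) beside 2.97% of all peaks. The libraries of treated mice were shallower, and depth and treatment cannot be told apart in these counts. With the mouse as a block, which uses that both populations came from the same animal, 55 members were higher in CD45.1. The counts also fell without single libraries: to 36 and 20 without the CD45.2 library of mouse 2, to 51 and 24 without that of mouse 3, and to 69 and 22 without that of mouse 1, the shallowest. Leaving out a CD45.1 library gave 59, 50 and 51 members higher in CD45.1, and 15, 19 and 23 higher in CD45.2, for mice 1, 2 and 3.

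The smallest adjusted p among members higher in CD45.1 after LPS belonged to a pair on chromosome 3 upstream of Sirpb1b and Sirpb1a, genes of signal-regulatory receptors of myeloid cells. At chr3:15576586-15576728, near Sirpb1b, CD45.1 libraries of mice 1, 2 and 3 had 62.3, 93.3 and 95.3 tags and CD45.2 libraries 6.13, 4.36 and 8.61 (log2 difference 3.64 ± 0.41, adjusted p = 4.9e-15, DESeq2). At chr3:15428027-15428169, near Sirpb1a, the values were 63.1, 69.8 and 74.5 against 3.50, 2.62 and 4.75. The 2 peaks are near copies of each other: 65.7% of the bases of the second lie in runs of at least 16 bases that the first also holds, so reads may have been divided between them and the split is uncertain. Near Cxcl2, a chemokine gene for neutrophils, chr5:91326551-91326693 at -6303 bp had 38.4, 47.6 and 52.8 tags against 3.50, 1.74 and 1.78, at least 14.4-fold. The graft libraries were apart from the host libraries at all of these. The populations were apart at all 98 and all 36 called members, and at 1525 of the 5908 tested. Over all peaks this was not counted. The Cxcl2 peak was apart in untreated mice too, with 44.8, 35.1 and 66.4 tags against 0, 0 and 1.62.

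Higher in CD45.2 after LPS were again the Ccdc149 peak, with 12.9, 8.48 and 9.91 tags against 111, 102 and 71.0 (log2 difference -3.19 ± 0.37, adjusted p = 9.2e-15, DESeq2), and the peaks near Fabp1 and Enpp2. Near Fabp1, a fatty acid binding protein gene, the values were 4.85, 3.26 and 4.72 against 35.9, 44.0 and 45.7. Near Enpp2, the gene of the lysophospholipase autotaxin, they were 0.404, 0 and 1.42 against 46.4, 43.2 and 50.2, at least 15.2-fold. The host libraries stood above the graft libraries at all 3 peaks. The remaining named peaks were near Celf4 and Larp4b, both genes of RNA-binding proteins, and Olfr111, while that near Marco at -12696 bp had 0.809, 0 and 0 tags against 22.8, 33.1 and 37.1.

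The untreated and the LPS comparison rest on different mice, so their calls can be set side by side. Of 4484 members matched between the tables and tested in both, 221 were called in untreated mice and 93 after LPS, and 84 were called in both, all in the same direction. That is 38.0% of the untreated calls and 90.3% of the LPS calls. The overlap was not counted over all matched peaks, so it is not shown to be particular to members. Of the 170 matched members called higher in CD45.1 untreated, 167 kept a positive sign after LPS, but the median log2 difference was 2.03, against 3.13 untreated. Of the 51 called higher in CD45.2, 51 kept the sign and the median went from -2.99 to -3.32. The members were chosen by their untreated values, and the part of that choice in these medians was not tested. Across all 4484 members, the log2 differences correlated with Pearson r = 0.80 and Spearman rho = 0.57 as a description, the points sharing libraries. The untreated calls included 177 and the LPS calls 38 members that had no matched peak in the other table.

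**Figure D3:**
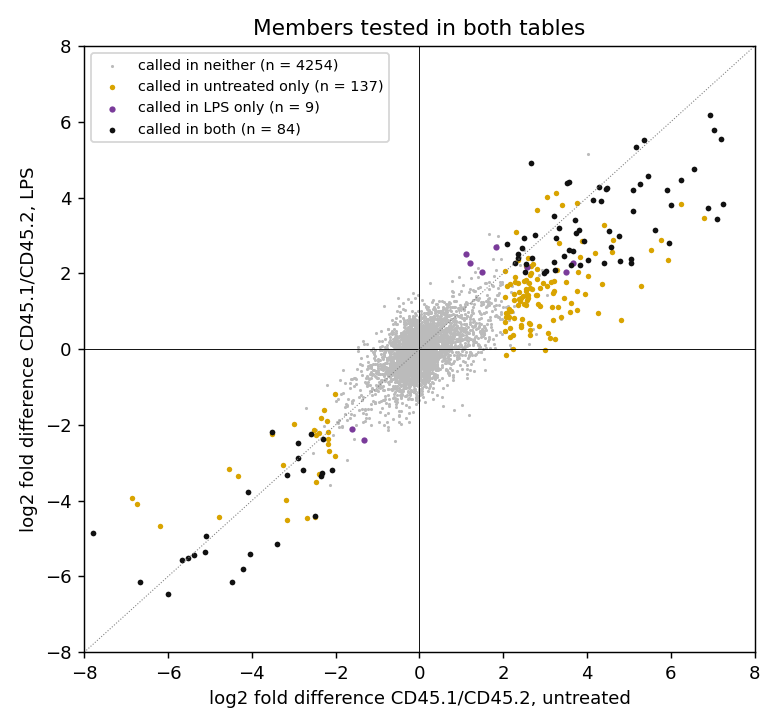
Log2 fold difference between CD45.1 and CD45.2 in untreated mice (horizontal) and after LPS (vertical) for 4484 matched members, one point each, coloured by where they were called; the dotted line marks equal values. The 84 members called in both lie in the lower left and upper right, and the median of the 170 called higher in CD45.1 in untreated mice goes from 3.13 to 2.03.

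The second question was how members changed with LPS in each population, in a joint model of all 12 libraries over 39235 matched peaks. Treatment and table cannot be told apart in it, since peaks were called and counted separately in treated and untreated mice. In CD45.1 cells, 331 of 4693 members tested were higher after LPS (7.05%, beside 6.77% of all peaks) and 258 were lower (5.50%, beside 4.98%). In CD45.2 cells, 424 were higher (9.03%, beside 7.68%) and 184 were lower (3.92%, beside 3.70%; DESeq2, adjusted p under 0.05 and more than 2-fold). Peaks were wider in the LPS table, at a median of 162 against 131 bp for members, and with an offset for width 163 were higher and 444 lower in CD45.1, and 256 and 339 in CD45.2. That offset moved the median log2 change over all peaks to -0.27 in both populations, and relative to this median 226 and 223 members passed in CD45.1, and 302 and 144 in CD45.2. Scaled to total tags, the counts were 228 and 101 in CD45.1, and 272 and 96 in CD45.2. The balance of gains and losses therefore depended on the scaling: gains were 56.2% of calls in CD45.1 and 69.7% in CD45.2, with the width offset 26.9% and 43.0%, and by total tags 69.3% and 73.9%. Single libraries decided part of the losses. Without the CD45.1 library of LPS mouse 2 or 3, 164 or 118 members were lower in CD45.1. Without the CD45.2 library of LPS mouse 2 or 3, or of untreated mouse 5 or 6, 118, 112, 97 or 108 were lower in CD45.2. Of the gains, 239 were shared, which is 72.2% of those in CD45.1 and 56.4% of those in CD45.2. Of the losses, 93 were shared (36.0% and 50.5%), and 0 members moved in opposite directions in the populations. Sharing was not counted over all matched peaks, so it is not shown to be particular to members.

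The named members with the smallest adjusted p rose in both populations. With the width offset, Smg9 and Fyb kept the call in both, Olfr432 and Itpkb kept it in CD45.1 and Zfp703 in CD45.2, and their other population was not checked. Near Smg9, a gene of nonsense-mediated decay, the peak chr7:25172268-25172451 at -12288 bp, in tags normalised over all 12 libraries, went from 19, 15.9 and 28.3 to 140, 170 and 164 in CD45.1 cells and from 23.4, 24 and 24.7 to 145, 136 and 140 in CD45.2 cells. The log2 changes were 2.92 and 2.53. Near Fyb, an adaptor protein gene of blood cells, the changes were 2.86 and 3.36. Near Olfr432, an olfactory receptor gene, CD45.1 libraries went from 4.98, 10.4 and 11.8 to 106, 126 and 108 tags, and CD45.2 libraries from 1.09, 0.527 and 0 to 27.7, 17.1 and 52.5. Near Itpkb, an inositol phosphate kinase gene, CD45.1 cells changed by 3.49 and CD45.2 cells by 1.94 on the log2 scale, and near Zfp703, a zinc finger gene, it was 2.32 and 3.76. The difference between the populations did not pass the interaction test at either peak (adjusted p = 0.14 and 0.12, DESeq2).

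Among the members that fell, that near Xirp1, an actin-binding protein gene, was called in both populations. The peak, at -10929 bp, went from 56.3, 59.4 and 43.7 to 9.96, 13.6 and 9.09 tags in CD45.1 cells and from 55.5, 70.9 and 51.4 to 13.9, 20.8 and 16.2 in CD45.2 cells. Near Tmem119, a microglia marker gene, the peak chr5:114237069-114237287 at +13183 bp went from 56.6, 76.1 and 62.4 to 8.83, 21.5 and 7.44 tags in host microglia (log2 change -2.36, adjusted p = 1.0e-07, DESeq2). In graft-derived cells the same peak went from 47.0, 50.8 and 34.8 to 27.0, 12.6 and 5.6 (-1.52, adjusted p = 0.0011, DESeq2), a call that was lost when scaled to total tags. The treated libraries were below the untreated ones at both peaks in both populations.

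The changes were also counted by gene list, without a test. Lists, given here by members tested in matched peaks, held between 13 and 38 members, and the counts are descriptions beside the shares over all peaks given above. For homeostatic microglia genes, 1 of 27 members was higher and 5 lower in CD45.1 cells, and 2 were higher and 9 lower in CD45.2 cells, with median log2 changes of -0.22 and -0.67 against -0.08 over all members in both. Losses in CD45.2 cells included those near Tmem119, Crybb1, Selplg and Siglech, which were also called in CD45.1 cells, and the gain in both was near Rhob, a small GTPase gene. For cytokines and chemokines, 6 of 23 were higher and 1 lower in CD45.1, and 6 higher and 0 lower in CD45.2. Among these, the peak near Il10, an anti-inflammatory cytokine gene, went from 6.85, 5.51 and 14.3 to 27.0, 32.1 and 27.3 tags in CD45.1 and from 1.63, 1.05 and 0 to 13.9, 12.6 and 12.7 in CD45.2. Near Il1a, the gene of an interleukin-1, the log2 changes were 1.03 and 1.47, and both of these and the CD45.1 change at Il10 lost the call with the width offset.

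For genes of NF-kappaB signalling and its feedback, 4 of 29 members were higher and 0 lower in CD45.1, and 6 higher and 0 lower in CD45.2. The peak near Dusp2, a phosphatase that limits MAP kinases, went from 2.18, 3.67 and 11.1 to 25.8, 43.7 and 63.0 tags in CD45.1 and from 5.44, 3.69 and 3.02 to 27.7, 39.2 and 73.1 in CD45.2. Near Bcl3, an NF-kappaB cofactor gene, the log2 changes were 1.55 and 1.44. Of 13 members near interferon-stimulated genes, 2 were higher and 1 lower in each population, the higher ones near Rsad2 and Gbp5, an antiviral enzyme gene and a guanylate-binding protein gene, and the lower one near Oasl1, which lost the call in both when scaled to total tags. Near AP-1 and immediate early genes, 0 of 33 members were higher and 6 lower in CD45.1, and 1 higher and 4 lower in CD45.2. Losses near Nr4a1, Fosb and Ier2 were called in both, though with the width offset Ier2 lost the call in both, Nr4a1 in CD45.1 and Fosb in CD45.2, and the gain was near Junb, a subunit of AP-1, which lost the call with the width offset and when scaled to total tags. For blood-cell transcription factors, 1 of 38 was higher and 3 lower in CD45.1, and 2 higher and 3 lower in CD45.2. For scavenger, phagocytosis and lipid genes, 3 of 23 were higher and 0 lower, and 2 higher and 1 lower. For bone marrow macrophage and monocyte genes, 1 of 17 was higher and 2 lower in CD45.1, and 2 higher and 0 lower in CD45.2.

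Between the populations the same lists held few calls. The bone marrow macrophage and monocyte list is not independent of the study. It holds genes, Cd38 and lysozyme genes among them, whose mRNA the study reports in engrafted cells and not in host microglia. Calls higher in CD45.1 near such genes therefore follow in part from the choice of the list. In untreated mice, 5 of 30 members near bone marrow macrophage and monocyte genes were higher in CD45.1 and 0 in CD45.2, with a median log2 difference of 0.42 against 0.01 over all members. They included peaks near Cd38, an NAD-consuming ectoenzyme (52.7, 48.4 and 59.9 tags against 2.46, 1.94 and 2.43, at least 16.6-fold), and Lyz1, a lysozyme gene (49.4, 44.7 and 61.0 against 3.28, 1.55 and 4.46). For cytokines and chemokines it was 4 of 38 and 0, near Cxcl2, Ccl4, Cxcl1 and Il10, with a median of 0.39. The Ccl4 and Cxcl1 calls were lost with the block and a G+C correction together, and the Ccl4 call also without either library of mouse 6. The Il10 call was lost with the mouse as a block and without either of the CD45.1 libraries of mice 4 and 6 or the CD45.2 libraries of mice 5 and 6. For NF-kappaB genes it was 3 and 1 of 56, for scavenger and lipid genes 2 and 2 of 37, for homeostatic microglia genes 2 and 1 of 39, for AP-1 and immediate early genes 2 and 0 of 54, for blood-cell transcription factors 1 and 2 of 53, and for interferon-stimulated genes 1 and 0 of 15. With the mouse as a block, both homeostatic calls higher in CD45.1, near Tgfbr1 and Csf1r, were lost, as were those near Nr4a1 of the AP-1 list and at 1 peak near Traf1 of the NF-kappaB list. After LPS, 2 of 23 bone marrow macrophage members, 2 of 35 cytokine members, 1 of 56 NF-kappaB members and 1 of 30 scavenger members were called, the first 4 higher in CD45.1 and the last 2 higher in CD45.2, and 0 in each of the other 4 lists. Of these, the call near Lyz1 was lost with the block, and also whichever library was left out. That near Dusp6 was lost with the block and a G+C correction together, and whichever library was left out. The Cxcl1 call was lost with that correction, and without the CD45.1 library of mouse 2 or 3 or the CD45.2 library of mouse 2. Those near Cd38, Cxcl2 and Marco were kept in every setting.

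The third question was whether the populations answered LPS differently, tested as the interaction of population and treatment. Of 4693 members, 17 had a larger rise in CD45.2 (0.36%, beside 0.224% of all peaks) and 1 a larger change towards CD45.1 (beside 0.0178%; DESeq2, adjusted p under 0.05). Since both populations were counted in the same table at each treatment, a table effect that is equal in both does not enter this test. With the mouse as a block 12 members were called, and without single libraries between 13 and 24.

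The 17 shared a pattern, shown in the plot of interaction members, which follows in part from how they were chosen. The interaction is the difference between the populations after LPS minus that in untreated mice, from the same libraries. The pattern was not counted over the 88 peaks of the whole series called in this direction. In untreated mice the difference favoured CD45.1 at 17 of 17, and 13 of them were among the 299 called there, which the interaction shares its untreated libraries with. Mean tags in untreated CD45.1 libraries were 2.57 to 21.5 times those in CD45.2 libraries, and after LPS 0.93 to 2.41 times. All 17 were called higher after LPS in CD45.2, with log2 changes of 1.18 to 4.80, and 4 were in CD45.1, where the changes ran from -0.39 to 1.74. After LPS, 0 of the 17 were called between the populations.

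The clearest case was near Dppa3, a gene known from germ cells and early embryos. The peak chr6:122585461-122585582 at +9079 bp had 48.9, 56.6 and 70.9 tags in untreated CD45.1 libraries and 5.98, 4.74 and 7.97 in untreated CD45.2 libraries. After LPS it had 76.2, 72.9 and 81.8 in CD45.1 and 60.5, 55 and 72.2 in CD45.2 (interaction -2.94 ± 0.42, adjusted p = 1.1e-07, DESeq2). So 1 group, the untreated host microglia, was low and the other 3 lay close together.

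Upstream of Tlr2, the receptor for bacterial lipoproteins, chr3:83649160-83649369 had 86.8, 86.3 and 119 tags against 33.2, 24 and 30.8 untreated, and 142, 146 and 114 against 129, 126 and 111 after LPS (interaction -1.60 ± 0.29, adjusted p = 1.8e-04, DESeq2). The sequence of this peak, printed above, holds an AP-1 match and a RUNX match. Peaks near Clec4d, a C-type lectin receptor gene, Fpr1, a formyl peptide receptor gene, and Aim2, a sensor of cytosolic DNA, were also called, with interaction values of -2.36, -2.49 and -1.36. These 3 calls depended on the fit, since all were lost with the mouse as a block, and so were those near Mrpl33, Agpat3 and Ms4a6c.

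On chromosome 19, 3 of the 17 lay near genes of the Ms4a cluster. Near Ms4a4b the values were 56.0, 56.3 and 57.0 tags against 14.7, 8.70 and 14.6 untreated, and 53.3, 36.9 and 39.2 against 42.9, 44.2 and 44.2 after LPS. Near Ms4a6b they were 45.4, 48.1 and 53.4 against 3.81, 3.69 and 4.67, and then 48.6, 52.5 and 39.9 against 20.2, 31.0 and 19.3. At Ms4a4b the populations overlapped after LPS, and at Ms4a6b the graft libraries stayed above. The peaks near Ms4a4b and Ms4a6b resemble each other: 70.3% of the bases of the Ms4a6b peak lie in runs of at least 16 bases that the Ms4a4b peak also holds, so reads may have been divided between them and their calls may not be separate. Beyond the 5 with the smallest adjusted p, the members named here were chosen after their values were seen. Further ones of the 17 were near Rabggta, Sorbs3, Tbc1d31, Sephs2 and the non-coding genes Gm32511 and Gm4262, and scaled to total tags 8 members were called in place of 18. Near Tlr2, Rabggta and Tbc1d31 the adjusted p was then 0.066, 0.11 and 0.054 (DESeq2).

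The 1 member in the other direction lay on chromosome X near the non-coding gene G530011O06Rik. CD45.1 libraries had 142, 134 and 165 tags untreated and 130, 180 and 129 after LPS, while CD45.2 libraries had 25, 22.7 and 22.8 and then 2.52, 7.58 and 3.50. The CD45.1 libraries overlapped between treatments, and all treated CD45.2 libraries lay below the untreated ones (interaction 2.28 ± 0.52, adjusted p = 0.0089, DESeq2). The call was lost without the CD45.2 library of LPS mouse 3, at an adjusted p of 0.33 (DESeq2).

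**Figure D4:**
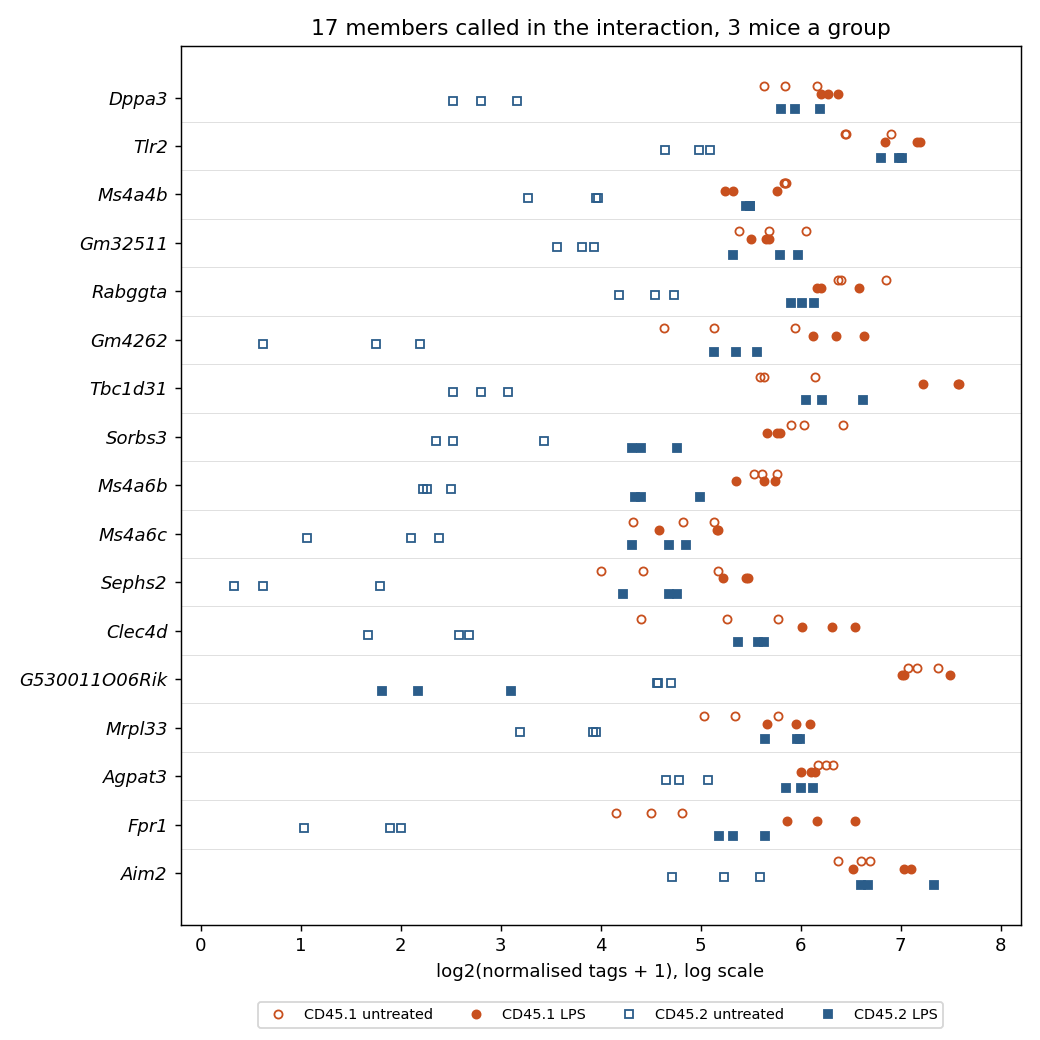
Normalised tags, as log2(tags + 1), of 17 of the 18 members called in the interaction of population and treatment, one row each in order of adjusted p, with 3 mice per group. In every row shown but that of G530011O06Rik the untreated CD45.2 libraries (open squares) lie to the left of the other 3 groups, and at G530011O06Rik the CD45.2 libraries fall further after LPS.

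What the called members shared in sequence was counted in their central 200 bp, as shares without a test. In untreated mice, an AP-1 match stood in 63 of 299 members higher in CD45.1 (21.1%), in 10 of 114 higher in CD45.2 (8.77%) and in 9.64% of members not called, beside 8.16% of all peaks tested. A CEBP match stood in 25.4%, 9.65% and 10.6%, beside 9.88% of all peaks, an IRF match in 12.4%, 5.26% and 8.42%, beside 8.36%, and a RUNX match in 10.03%, 3.51% and 6.22%, beside 5.68%. A MEF2 match, which is rich in A and T, stood in 5.69%, 1.75% and 1.76%, beside 1.97%. Shares of NF-kappaB matches were alike at 3.34%, 3.51% and 3.61%, beside 3.34%, and those of the E-box were 3.68%, 5.26% and 4.87%, beside 5.68%. PU.1 matches stood in 9.36% of members higher in CD45.1, in 2.63% of those higher in CD45.2 and in 9.15% of members not called, beside 9.57%. These shares go with the G+C content given above, and the part of base composition in them was not tested.

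No CTCF match stood in the members called between the populations. CTCF matches were in 738 of 6876 members not called (10.7%), beside 5.16% of all peaks, and in 0 of 299 and 0 of 114 called members. After LPS they stood in 516 of 5774 members not called (8.94%), in 0 of 98 and in 0 of 36 called members. The zeros say only that these letters were not in the windows searched.

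AP-1 matches were also frequent in members higher in CD45.1 after LPS, in 31.6% against 15.6% of members not called and 13.7% of all peaks. They were most frequent in members that rose with LPS. They stood in 137 of 331 members that rose in CD45.1 (41.4%) and in 163 of 424 that rose in CD45.2 (38.4%). Of members that fell, 3.10% and 4.35% held one, and of members not called 10.1% and 9.55%, beside 9.83% of all matched peaks. CEBP matches stood in 22.4% and 27.6% of the gains and in 9.30% and 4.89% of the losses, beside 10.6% of all, and NF-kappaB matches in 6.95% and 5.19% of the gains, beside 3.76%. PU.1 matches stood in 14.7% and 10.9% of the losses and 9.37% and 9.43% of the gains, beside 9.56%. CTCF matches stood in 1.51% and 0.47% of the gains and in 3.49% and 4.35% of the losses, beside 5.16% of all matched peaks and 11.2% and 11.4% of members not called.

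**Figure D5:**
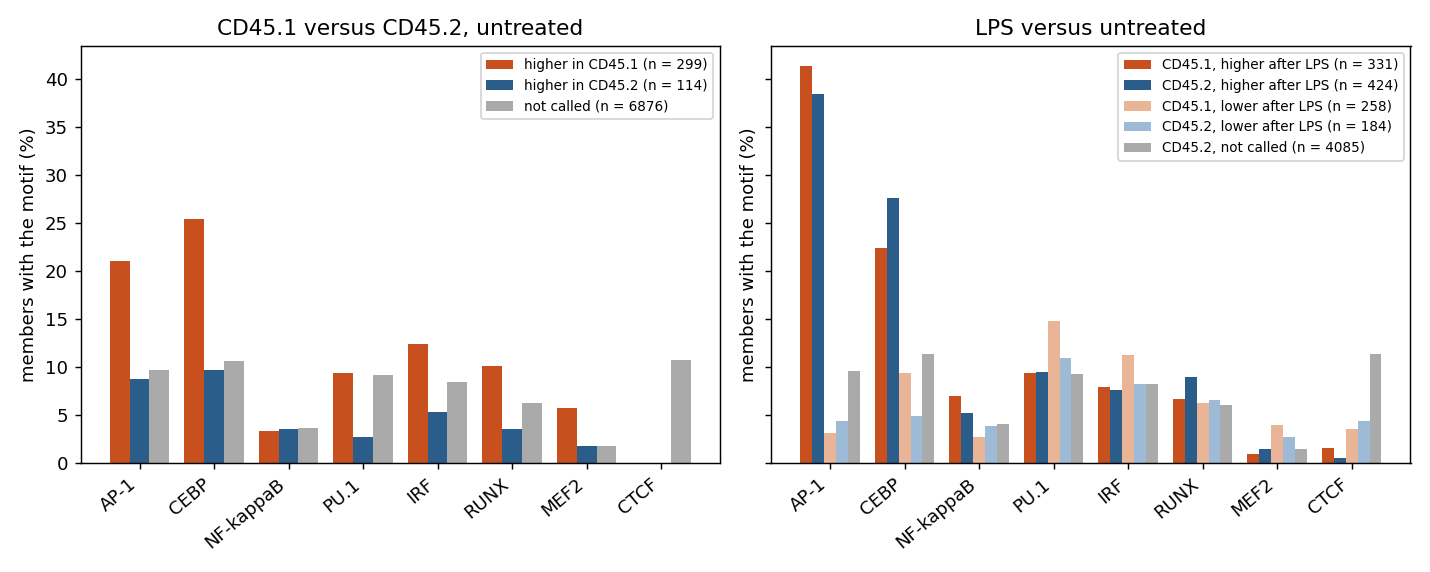
Percentage of members whose central 200 bp hold a match to each motif, for members called between the populations in untreated mice (left) and for members that rose or fell after LPS in each population (right), with members not called in grey. AP-1 bars reach 41.4% and 38.4% of the gains after LPS, and CTCF bars are highest in members not called.

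Members as a class were not shown to take a different share of the tags of the populations. Of the tags in peaks, members held 9.97%, 9.96% and 10.1% in CD45.1 and 9.32%, 9.99% and 9.81% in CD45.2 libraries of untreated mice 4, 5 and 6. After LPS they held 9.79%, 9.24% and 9.37% in CD45.1 and 9.00%, 9.35% and 9.54% in CD45.2 libraries of mice 1, 2 and 3. The libraries overlapped. CD45.1 minus CD45.2 was 0.23 ± 0.41 percentage points on average (SD, n = 6 mice) and positive in 3 of the 6, which gave p = 0.31 in a two-sided exact permutation test that flips the sign of each pair and can reach 0.031 at the lowest. Within untreated mice the difference was 0.29 and within treated mice 0.17, with 3 mice each, a number at which the exact test cannot go below p = 0.25.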

How the data were processed

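ATAC-seq was measured in 12 libraries from 6 mice, CD45.1 and CD45.2 cells of each mouse. Per the file headers and the labels, the authors called peaks per library and merged them per treatment with HOMER, on build mm9, after Bowtie2, Picard 1.108 and bcl2fastq 2.17.1.14, and the authors deposited estimated counts, which are unnormalized tags per merged peak in steps of 0.5. Between 43.99% and 49.78% of values per library were not whole, and they were rounded here. The peak lists of single libraries were not used beyond the list names in the merged tables. Sequences and G+C content were read from mm9.

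All peaks of a table with more than 10 tags in their highest library entered the Wald test of DESeq2 1.42.0 (R 4.3.3). Benjamini-Hochberg adjustment was used, and each treatment was fitted separately with population as the term. CD45.1 against CD45.2 was called above 4-fold where the adjusted p was below 0.01. Peaks of the tables were matched at 50% reciprocal overlap and tested in a joint model of the 4 groups, with responses called above 2-fold where the adjusted p was below 0.05, and the interaction at the same p without a fold limit. Tag shares were compared by exact permutation. Where the lower group held at most 3 tags in every library, the fold is a bound against 3 tags per library. Motifs were searched in the central 200 bp. The fits were tested on simulated data. Python 3.11.15, edgeR 4.0.16 and scipy 1.17.1 were also used.

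Members and lists were chosen with earlier results of these data known. Named members have a protein-coding nearest gene, 1 peak a gene: the 6 with the smallest adjusted p per direction between populations, 5 per direction for responses and interaction, the 5 genes with most called members per direction, and up to 4 called members per list. The populations of a mouse were sorted from the same animal, so equal numbers pair them. Their deviations from the group means correlated at 0.067 to 0.098 in untreated and -0.081 to 0.14 in treated mice. The main fits have no block, and p-values measure the spread between mice. A few members that the rule would name are not reported here.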

Additional observations from a re-analysis of the deposited data

Results flagged for a closer look

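At 4 named members the response to LPS differed between the populations, by the interaction term of the joint DESeq2 model, in which a negative value is a larger rise in CD45.2. The value was -2.94 near Dppa3, -1.60 near Tlr2, -2.20 near Ms4a4b and -1.80 near Rabggta on the log2 scale. No cause was tested. In the same samples, no mouse stood apart in the paired difference of member tag shares by Dixon's test.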

How the results depend on the processing

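The counts of called members moved as follows. The cause was not tested, except that a mean count of at least 20, a 10 kb limit, 80% overlap and fewer libraries leave fewer peaks or samples to test. Untreated, 299 and 114 members were higher in CD45.1 and CD45.2. A block for the mouse with a G+C correction gave 175 and 74, a mean count of at least 20 gave 102 and 29, 10 kb gave 165 and 57, and leaving out single libraries gave 194 to 268 and 60 to 89. After LPS, 98 and 36 members were called. Pairing with a block gave 55 and 24, the block with a G+C correction 38 and 24, a mean count of at least 20 gave 24 and 9, 10 kb gave 54 and 18, and leaving out single libraries 36 to 69 and 15 to 24. For those higher in CD45.2, edgeR called 67 and keeping all repeats 58.

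For LPS against untreated, 331 and 258 members were higher and lower in CD45.1, and 424 and 184 in CD45.2. With the width offset these were 163 and 444, and 256 and 339. Scaled to total tags they were 228 and 101, and 272 and 96, and at 80% overlap 69 and 65, and 96 and 43. Leaving out single libraries gave 257 to 353 and 118 to 276, and 327 to 431 and 97 to 187. The interaction (18 members) gave 28 with edgeR, 8 by total tags, 9 at 80% overlap, 12 with the block and 13 to 24 without single libraries. Total tags moved the median log2 difference of all peaks by 0.14 in the LPS table. The tag share difference of 0.23 was 0.32 of total tags, 0.12 within 10 kb and 0.12 to 0.31 without single mice. Of 180 results for named members, 102 were called in every setting and 0 reversed. The block also ended calls of members that the report does not describe. The LPS libraries held at most 6556594 tags and the untreated ones at least 8392878, and the part of depth in the counts was not tested.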
